A study of Drosophila melanogaster with 12 samples.

Results

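The genes described here encode proteins of the mitochondrial ribosome of Drosophila, and they were taken from an annotation of transcription units on the dm6 build. A transcription unit is a stretch of 1 strand that the annotation treats as transcribed together, and it holds 1 gene or several merged ones. Every gene symbol of the annotation that starts with mRpL (large subunit) or mRpS (small subunit) was a member. This gave 73 of the 17698 genes named, 47 of the large subunit and 26 of the small subunit, and no unit held more than 1 of them. All 73 were protein-coding genes in the RefSeq gene table of the same assembly. Symbols alone decided membership, so bonsai and tko, which encode mitochondrial ribosomal proteins under other names, are given apart.

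The mitochondrial ribosome translates the few proteins that the mitochondrial genome encodes, which are parts of the respiratory chain and of ATP synthase. Its RNAs come from the mitochondrial genome, whereas its proteins are encoded in the nucleus, made in the cytoplasm and imported. Some of these proteins have counterparts in bacterial ribosomes and others were added in mitochondria. In a divergent or bidirectional arrangement, genes on opposite strands start close together and are read away from each other, so that the stretch between them can serve as promoter for both.

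The study profiled RNA polymerase II by mNET-seq, in which RNA attached to captured polymerase is sequenced, in S2 cells, a Drosophila line of male origin. Libraries of total Pol II and of Pol II phosphorylated at serine 5 of the C-terminal domain were made after MSL1 RNAi, MOF RNAi or control RNAi (labelled GST), 2 replicates in each of 6 groups and 12 in all. By the design text, RNAi ran for 2 days with MSL1 or the control and for 4 days with MOF; MSL1 is a scaffold and MOF the histone acetyltransferase of the complex that raises X transcription in males. The file analysed here gave the units and a value for 0 of the 12 libraries, so no RNAi effect, depth or replicate error can be given for any member. The values below are positions and lengths, set beside those of all 15960 units on the nuclear chromosomes, and no difference was tested.

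The members were spread over X and the 4 large autosomal arms, with 0 on chromosome 4 and 0 on Y. Arm 3R held 21 of them, 3L held 17, 2L and 2R held 12 each, and X held 11. The X share was 15.1% of member units, beside 15.0% of all nuclear units. On 3R the share was 28.8% of members and 23.9% of all units, and on 2L it was 16.4% of members and 19.9% of all units. The 11 X members were 8 of the large subunit and 3 of the small subunit.

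The member units stood apart from each other. The closest pair was mRpL3, whose bacterial counterpart is among the first proteins to bind the large ribosomal RNA, and mRpS30 on X, with 23383 bp between their units. Next came mRpL24 and mRpL28 on 2L with 28614 bp. The median distance to the nearest other member was 831658 bp, and 0 members lay within 5000 bp of another. No like value was computed for other units, so whether this spacing is particular to the members was not tested.

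Member units were short. Their median length was 910 bp, beside 1822.5 bp over all nuclear units and 2241 bp over nuclear units that hold a protein-coding gene. Of the 73 member units, 41 were shorter than 1000 bp (56.2%), and of all nuclear units 28.3% were. The median was 910 bp for large subunit members and 886.5 bp for small subunit members. By arm the median of members ran from 758.5 bp on 2R to 1160 bp on X, and on each of these chromosomes it lay below the median of all units, which ran from 1624 bp on 2L to 2242 bp on X.

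The extremes of length were far apart. The shortest unit was that of mRpL34 (FBgn0083983), 390 bp on the plus strand of 2R from 16098948 to 16099337. It was followed by mRpL33 (FBgn0040907) on X with 468 bp and mRpL55 (FBgn0038678) on 3R with 512 bp. The longest was that of mRpS9 (FBgn0037529), whose bacterial counterpart reaches the tRNA in the small subunit, with 13391 bp on the minus strand of 3R from 7889277 to 7902667. The mRpS5 unit (FBgn0044510) spanned 6299 bp on 3L from 24537236 to 24543534. The third, with 6083 bp, held mRpS14 together with another gene. In all, 5 member units reached 2000 bp, the others being those of mRpL13 with 4123 bp, again a shared unit, and mRpS30 with 2242 bp.

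**Figure D1:**
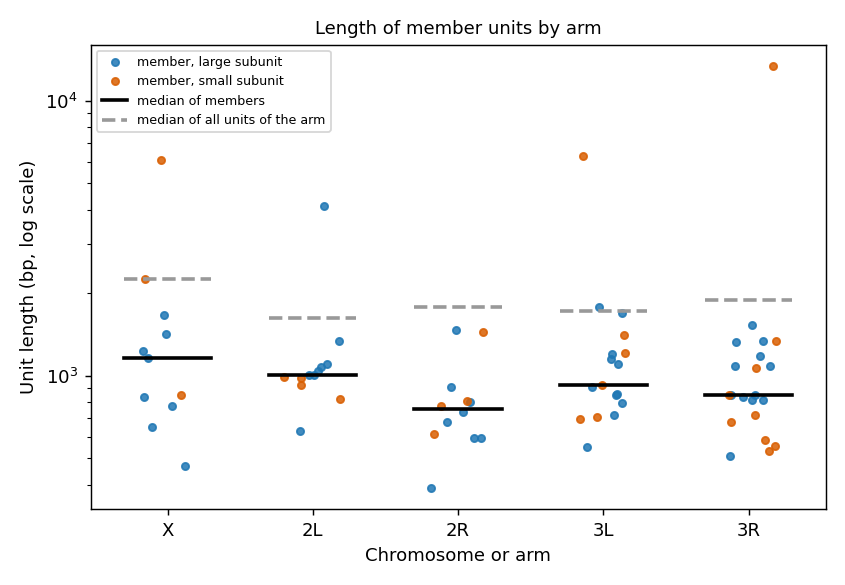
Length of each member unit in bp (log axis) on X and the 4 large autosomal arms, 1 point per unit, coloured by ribosomal subunit. Solid bars are the medians of members (1160 bp on X, 852 bp on 3R) and dashed bars those of all units of the arm (2242 bp on X, 1888.5 bp on 3R), and 5 points lie at or above 2000 bp.

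Few isoforms were annotated for the members, as for most short protein-coding units. A single transcript was listed for 53 of the 73 units (72.6%), beside 54.5% of all nuclear units. Among nuclear 1-gene protein-coding units under 2000 bp it was 77.6% of the 67 members and 71.3% of all 5788 such units. Of the other member units, 13 listed 2 transcripts, 3 listed 3 and 4 listed 4. The units with 4 were those of mRpL23, a large subunit protein whose bacterial counterpart lies at the exit of the peptide tunnel, and the 3 units shared with another gene. By RefSeq, 55 members had 1 protein entry and 18 had more.

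Most members started close to a gene read in the other direction. A divergent start, on the opposite strand, facing away and at most 1000 bp from the start of the member, was found for 56 of 73 members (76.7%). Over all nuclear units 33.1% had one, over those with a protein-coding gene 36.5%. Among 1-gene protein-coding units under 2000 bp the share was 82.1% of the 67 members and 34.9% of all such units. The count by subunit was 36 of 47 members (76.6%) and 20 of 26 members (76.9%). Distances of the 56 ran from 20 to 793 bp with a median of 287.5 bp, and 51 of them were at most 500 bp.

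All 56 partners were different units, all held a protein-coding gene, and 0 were members themselves. In 49 of the 56 pairs the partner's unit was the longer one, and the median partner length was 2945.5 bp. In 55 pairs no other unit lay between the starts and each start was the nearest divergent start of the other. The exception was mRpL41, where the unit of the non-coding gene CR44463 lay between its start and that of CG8079, 762 bp away.

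**Figure D2:**
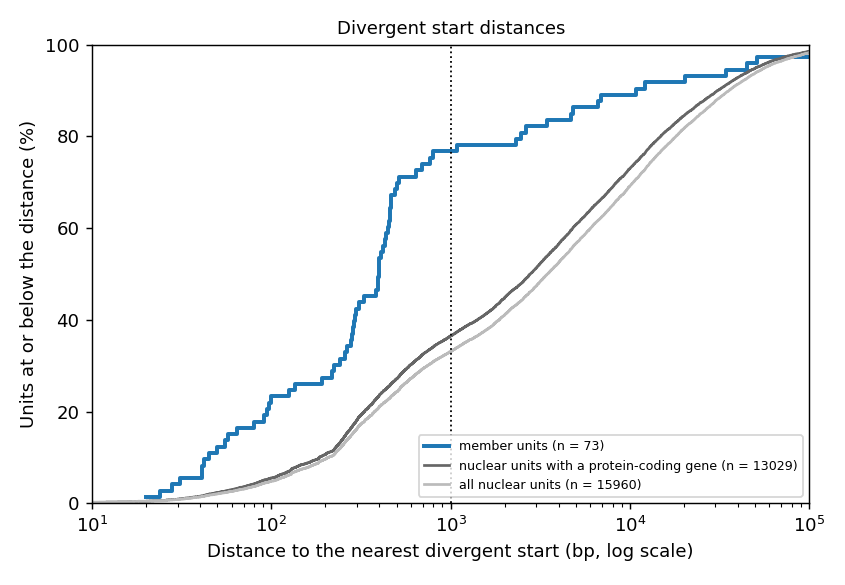
Share of units (%) whose nearest divergent start lies at or below a distance in bp (log axis), for the 73 member units, the 13029 nuclear units with a protein-coding gene and all 15960 nuclear units. At the dotted line at 1000 bp the curves stand at 76.7%, 36.5% and 33.1%.

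In 20 members the divergent start lay within 200 bp (27.4%, beside 9.66% of all nuclear units), and in 17 of these within 100 bp. Of the 20, 15 belonged to the large subunit. The closest pair was mRpL18 (FBgn0026741), on the plus strand of 2R from 12756434 to 12757173, whose start lay 20 bp from that of Taz, the gene of the cardiolipin-remodelling enzyme tafazzin. In mRpL23 (FBgn0035335), on 3L from 2372844 to 2373704, the distance to CG9004 was 24 bp. In mRpL46 (FBgn0035272), on 3L from 1777439 to 1778347, it was 28 bp to CG2021, whose unit of 402 bp was shorter than that of the member.

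Other members of the large subunit had partners of varied function at like distances. The start of mRpL51 (FBgn0032053) lay 31 bp from Uba4, named for an enzyme that activates a ubiquitin-like protein. The starts of mRpL48 and mRpL15 each lay 41 bp from their partners, CG17660 and CG5872, and that of mRpL52 lay 50 bp from CG12107. For mRpL28 the distance to the divergent start was 55 bp, and for mRpL27 it was 91 bp to CG15435. The mRpL2 gene (FBgn0036135), whose bacterial counterpart supports the peptidyl transferase centre, started 64 bp from FoxK, a forkhead transcription factor gene. For mRpL47 the distance was 99 bp to the unit of JHDM2, a histone demethylase gene, and for mRpL42 it was 136 bp to PIG-N, a gene of GPI anchor synthesis.

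Among the 5 small subunit members with such tight pairs, mRpS28 started 42 bp from the unit of CG5323 and CG5327, and mRpS11 started 57 bp from Ns1, a nucleostemin gene. The start of mRpS16 lay 97 bp from cg, the gene of the zinc finger protein combgap. The remaining 2 were homologues of the bacterial protein S18, of which Drosophila, like mammals, has several. The start of mRpS18C (FBgn0039765), on 3R from 30423974 to 30424556, lay 45 bp from CG15535, and that of mRpS18A (FBgn0051450), on 3R from 8561917 to 8562593, lay 80 bp from CG31460. The third homologue, mRpS18B on 2L from 20096329 to 20097253, had its divergent start at 328 bp, that of Kua. Their units measured 583 bp for mRpS18C, 677 bp for mRpS18A and 925 bp for mRpS18B.

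Several partners are known for work in mitochondria themselves, and these were picked out after the pairs were seen. Besides Taz, they include ATPsynD, an ATP synthase subunit gene, 95 bp from mRpL55. HtrA2, the gene of a protease of the intermembrane space, lay 126 bp from mRpL11, which with mRpL10 and mRpL12 belongs to the stalk region where translation factors bind. Mitofilin, a gene of the complex that shapes the cristae, lay 192 bp from mRpL35. The gene qless, needed for coenzyme Q synthesis, lay 264 bp from mRpL32. Other partners serve elsewhere in the cell, such as Cdk1, the mitotic kinase gene, 400 bp from mRpS7 and Prosbeta2, a proteasome subunit gene, 285 bp from mRpL39. The share of mitochondrial genes among partners, or among all units, was not counted. Whether such partners are more frequent beside members was not tested.

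Between 200 and 500 bp lay 31 further members (42.5%), beside 14.7% of all nuclear units. Within 200 to 300 bp, mRpL24 had betaggt-I as its partner at 218 bp, mRpS2 had Mon1 at 222 bp and mRpL54 had CG15653 at 242 bp. The gene mRpS10 lay 257 bp from Art3, an arginine methyltransferase gene, and mRpL21 lay 279 bp from rept, the gene of the ATPase reptin. Next were mRpL43 with CG30183 at 281 bp and mRpL44, whose mammalian counterpart resembles RNase III, with the chromatin remodeller gene Snr1 at 290 bp. The chaperone gene Droj2 lay 297 bp from mRpS21.

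Partners further out were also varied. Besides Kua and Cdk1, named above, those of the autosomal members included Dg, the dystroglycan gene, 384 bp from mRpL34. CG5003 lay 392 bp from mRpS22 and ste14 lay 399 bp from mRpL20. The Tudor-SN unit, which also holds snoRNA genes, lay 399 bp from mRpL17, and the Nop60B unit, of a pseudouridine synthase and its snoRNA genes, lay 436 bp from mRpS17. Apc2 lay 421 bp from mRpS24, CG13698 lay 430 bp from mRpS26 and Cip4 lay 448 bp from mRpS6. The meiotic gene mei-P22 lay 455 bp from mRpL50, CG5830 lay 457 bp from mRpS31 and CG9626 lay 462 bp from mRpL1. The CenG1A unit, which merges 4 genes, lay 492 bp from mRpS23. Beyond 500 bp stood 5 members, among them mRpS29, which encodes a GTP-binding protein of the small subunit, 637 bp from the repair gene rad50, and mRpL4, 793 bp from CG4440.

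**Figure D3:**
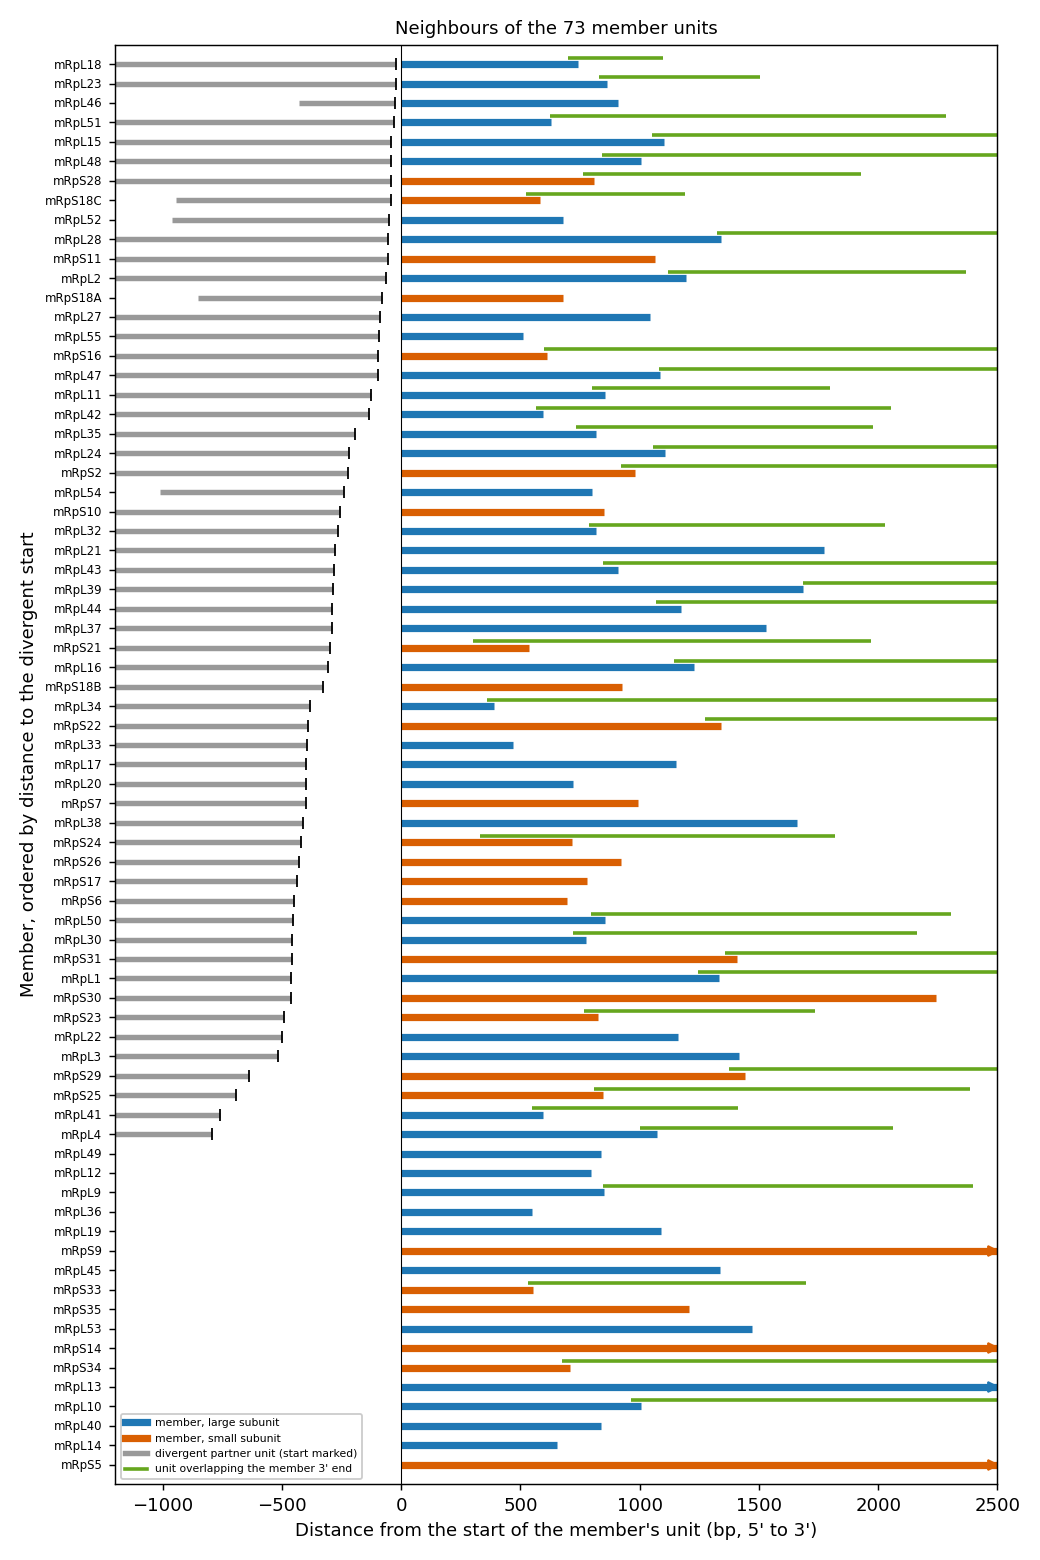
Map of the 73 member units aligned at their start (0 bp) and read from left to right, ordered by the distance to the divergent start. Blue and orange bars are large and small subunit members, grey bars to the left are the 56 divergent partners within 1000 bp, green bars mark a unit that overlaps the 3' end, and arrowheads mark units that run past 2500 bp, for which no green bar is drawn.

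For 17 members no divergent start lay within 1000 bp, and their distances ran from 1087 bp for mRpL49 to 246372 bp for mRpS5. In 14 of the 17 the neighbour upstream lay on the same strand, so that the member followed it in tandem. Upstream gaps of these tandem neighbours were 191 bp for mRpL45, 194 bp for mRpL36 and 221 bp for mRpS35. The neighbour of mRpL45, whose mammalian counterpart helps to hold the mitochondrial ribosome at the inner membrane, was the unit of mRRF2, a mitochondrial ribosome recycling factor gene, and CG31161. The stalk genes mRpL12 and mRpL10 followed GNBP3 by 239 bp and spen by 381 bp. Others were mRpL13 at 258 bp behind the tup unit, mRpS33 at 282 bp behind ema and mRpL40 at 290 bp behind the pros unit. The gap was 299 bp between mRpL14 and CG2841, 329 bp between mRpL9 and ea, 362 bp between mRpS9 and EMC1, 406 bp between mRpL19 and CG8036, and 453 bp between mRpS34 and CG33257. For mRpS5 it was 1767 bp to CR12460, which made it the 1 member with no unit of either strand within 500 bp.

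The other 3 of the 17 did not follow a gene in tandem. The start of mRpL49 on X faced CG4404 at 1087 bp. The start of the mRpS14 unit overlapped that of Naa15-16, a gene of N-terminal acetylation, by 255 bp, and this was the 1 head-to-head overlap among the members. The mRpL53 unit (FBgn0050481), 1470 bp on 2R from 13954195 to 13955664, lay wholly inside the AGO1 unit of 14703 bp on the other strand. AGO1 is the Argonaute gene of the microRNA pathway. Of the members, only mRpL53 lay inside another unit (1.37%, beside 11.1% of all nuclear units).

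The 3' ends of members often ran into the end of a gene coming the other way. At least 1 bp of another unit overlapped 42 of 73 members (57.5%), beside 39.2% of all nuclear units. Of the 44 overlaps, 0 were on the same strand, and 0% of all nuclear units had a same-strand overlap either. In 39 members (53.4%) the overlap was tail to tail, beside 18.8% of all nuclear units and 22.0% of those with a protein-coding gene. Among 1-gene protein-coding units under 2000 bp the tail-to-tail share was 56.7% of members and 21.9% of all such units. By subunit, 25 of 47 large subunit members (53.2%) and 14 of 26 small subunit members (53.8%) had one.

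These tail overlaps were short. The median was 50 bp, or 5.69% of the member's unit, and 34 of the 39 were under 100 bp. Over all nuclear units with such an overlap the median was 83 bp. Among 1-gene protein-coding units under 2000 bp it was 49 bp for members and 65 bp for all such units. For mitochondrial tRNA synthetase units it was 51 bp and for cytoplasmic ribosomal protein units 19 bp, so short overlaps were not particular to the members. The shortest among members was 3 bp, for mRpL51 with PIG-U and for mRpL39 with Zip71B. The mRpL18 unit overlapped that of ox, which encodes a subunit of respiratory complex III, by 41 bp, so that its neighbours on both sides were genes of mitochondrial proteins. The mRpS23 unit ended in that of RpII33, a Pol II subunit gene, with 57 bp shared, and the mRpL15 unit shared 47 bp with Psn, the presenilin gene.

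Tail overlaps of 100 bp or more were found for 5 members. The mRpS9 unit shared 874 bp with that of ArgRS-m, the mitochondrial arginyl-tRNA synthetase gene. For mRpS24 the overlap with CG6182 was 387 bp, which was 54.0% of its unit. For mRpS21 it was 234 bp with CG8870, for mRpL48 it was 164 bp with frtz and for mRpL44 it was 104 bp with POLDIP2. In 3 members (4.11%, beside 7.14% of all nuclear units) another unit lay wholly inside that of the member on the other strand. These were wtrw, a TRP channel gene, with 9817 bp in mRpS9, CG12200 with 993 bp in the mRpS14 unit and CG34263 with 314 bp in mRpL17. Overlaps of at least 100 bp of any kind touched 8 members (11.0%), beside 28.5% of all nuclear units. In a coverage track summed over the strands, which the labels list among the data and which was not analysed here, bases shared by units of opposite strands would not be told apart.

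A divergent start within 1000 bp and a tail overlap occurred together in 34 members (46.6%), beside 9.81% of all nuclear units. Among 1-gene protein-coding units under 2000 bp, both occurred in 50.7% of members and 12.3% of all such units. Of the 20 members with a divergent start within 200 bp, 14 also had a tail overlap. Neither a divergent start within 1000 bp nor an overlap was found for 10 members (13.7%), beside 40.2% of all nuclear units. The gap to the nearest unit was 0 bp for 42 members, so the median gap was 0 bp, beside 71 bp over all nuclear units. On their own strand members stood further apart, with a median gap of 1427 bp, beside 1058 bp.

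Downstream, 57 members (78.1%) faced a unit of the other strand, beside 61.4% of all nuclear units, and 16 were followed by one of their own strand. The unit after mRpL27 was that of RpL27A, which encodes a protein of the cytoplasmic ribosome, 230 bp on. The mRpL36 unit was followed by CG7550 after 52 bp, the mRpL54 unit by Cht8 after 58 bp and the mRpS10 unit by CG34316 after 68 bp.

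Sharing of a unit was uncommon among members and among all nuclear units. Another gene was merged into 3 member units (4.11%), beside 7.14% of all nuclear units. In each the other gene was protein-coding and the member began at the start of the unit. With only protein-coding genes counted as the other gene, the share of all nuclear units was 4.08%, close to that of members. The mRpL13 unit (FBgn0032720), 2L minus strand, 18855126 to 18859248, spanned 4123 bp and included CG10602. In RefSeq CG10602 has that whole span, and mRpL13 covers 1221 bp of it from the same start. In the mRpL53 unit the member and CG33155 had the same span of 1470 bp. In the mRpS14 unit (FBgn0044030), X minus strand, 19474156 to 19480238, mRpS14 covered 857 bp, and CG32533 started 827 bp from the start of the unit. Counts made per unit would not tell the genes of these 3 units apart.

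X is the chromosome on which the MSL complex acts in male cells. Of the 11 members on X, 8 had a divergent start within 1000 bp (72.7%), beside 32.5% of all X units and 77.4% of the 62 autosomal members. Their distances ran upward from 306 bp, so 0 of 11 had a tight pair within 200 bp, beside 9.17% of all X units, a share at which 11 units would hold about 1. Of the 62 autosomal members 20 had one (32.3%), beside 9.84% of all units on the 4 large autosomal arms. Among members with a divergent start within 1000 bp, the median distance was 460.5 bp for those of X, against 260.5 bp for those of the autosomes. Over all X units with such a start it was 331 bp, and over those of the autosomal arms 302 bp. A tail overlap was found for 3 of 11 X members (27.3%), beside 16.8% of all X units, and for 36 of the 62 autosomal members (58.1%), beside 19.2% of all units on the autosomal arms. Whether the X members differ from the autosomal ones was not tested.

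The X members had partners of many kinds. The start of mRpL16 (FBgn0023519), whose bacterial counterpart lies near the peptidyl transferase centre, was 306 bp from that of trr, a histone methyltransferase gene, and its end overlapped arm, the beta-catenin gene, by 82 bp. Its unit ran from 1890256 to 1891482 on the plus strand. The start of mRpL33 lay 395 bp from norpA, the phospholipase C gene of phototransduction, that of mRpL38 lay 410 bp from CG11674, and that of mRpL30 lay 457 bp from HLH4C, a bHLH transcription factor gene. For mRpS30 the distance was 464 bp to Paf-AHalpha, for mRpL22 it was 499 bp to if, an integrin gene, for mRpL3 it was 515 bp to Graf and for mRpS25 it was 695 bp to nmdyn-D6. The remaining 3 X members, mRpL14, mRpL49 and mRpS14, are among the 17 described above with no divergent start within 1000 bp. Besides mRpL16, the X members with a tail overlap were mRpL30, with 55 bp of Torsin, and mRpS25, with 39 bp of CG14414.

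Mitochondrial ribosomal proteins under other symbols were looked up by bonsai, tko and DAP3. The last named no unit, since the annotation lists that gene under mRpS29, a member. The unit of bonsai, which encodes the homologue of bacterial S15, spanned 1099 bp on 2R, started 43 bp from Cdk9, the elongation kinase gene, and shared 62 bp with CG3732. The unit of tko, which encodes the homologue of S12 at the decoding site, spanned 1664 bp on X from 2442313 to 2443976 with its nearest divergent start at 3793 bp and no overlap. With both added, 57 of 75 units (76.0%) had a divergent start within 1000 bp.

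The mitochondrial ribosome works with its own tRNA synthetases and translation factors. The annotation named 15 such synthetase genes (symbols ending in RS-m) and 9 of the 10 factor symbols looked up. The symbol not found, ico, names the same gene as mEFG1, which was among the 9. Units of both lists were longer, with medians of 2727 bp for the synthetases and 1839 bp for the factors, beside 910 bp for the members. A divergent start within 1000 bp was found for 7 of 15 synthetase units (46.7%) and 4 of 9 factor units (44.4%). The share was 76.7% of members and 33.1% of all nuclear units. Within 200 bp it was found for 5 synthetase units (33.3%) and 2 factor units (22.2%), beside 27.4% of members and 9.66% of all nuclear units. Tight pairs were thus not particular to the members. Among the tight pairs of these lists, AlaRS-m started 35 bp from Fitm and the mRRF2 unit 30 bp from CG31156. Tail overlaps were found for 9 of 15 synthetase units (60.0%) and 3 of 9 factor units (33.3%), beside 53.4% of members and 18.8% of all nuclear units. On X lay 0 units of either list, beside 15.0% of all nuclear units, and with lists this small the difference was not tested.

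Set against cytoplasmic ribosomal protein genes (92 symbols starting with RpL or RpS and a digit, or with RpLP, with their paralogues), the members differed in the counts as follows. A divergent start within 1000 bp was found for 76.7% of member units and 62.0% of cytoplasmic ones. A tail overlap was found for 53.4% of member units and 23.9% of cytoplasmic ones. More than 1 gene was held by 4.11% of member units and 35.9% of cytoplasmic ones, several of which host snoRNA genes. A single transcript was listed for 72.6% of member units and 16.3% of cytoplasmic ones. None of these differences was tested.

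**Figure D4:**
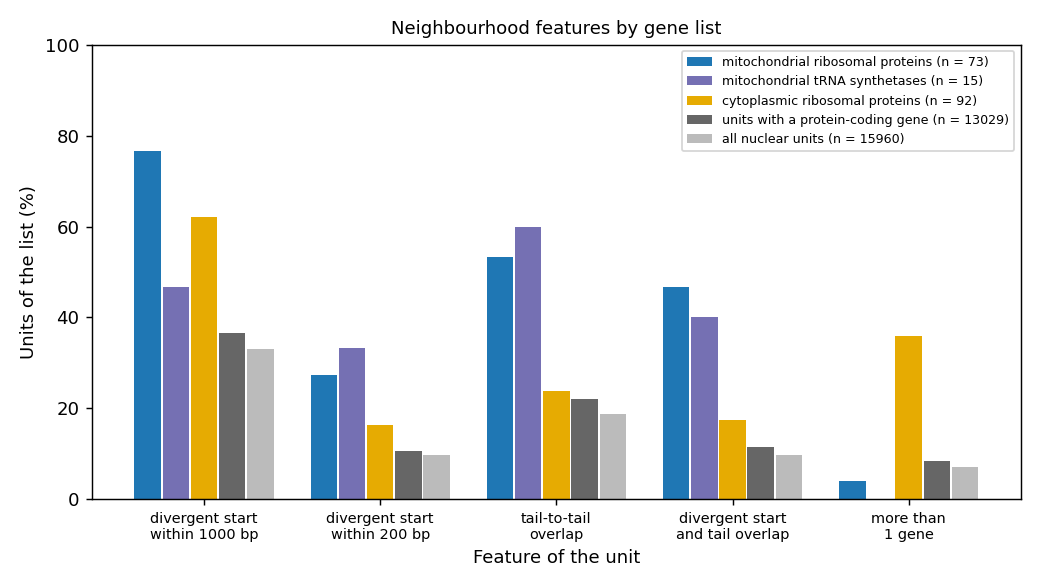
Share of units (%) with each neighbourhood feature in 5 sets of units. For mitochondrial ribosomal protein units the bars stand at 76.7% for a divergent start within 1000 bp, 27.4% within 200 bp, 53.4% for tail-to-tail overlap, 46.6% for both and 4.11% for more than 1 gene.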

How the data were processed

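The authors deposited 1 annotation of transcription units for the whole series, which was analysed here. Per the file headers, it was written with rtracklayer 1.48.0, and how genes were merged into units is not stated there. It gives starts and ends in bp (1-based) on dm6, the build named in the submitters' processing notes, and no score or value of any library. Those notes also name cutadapt 2.8, STAR 2.7.4a and SAMtools 1.20, none of which could be checked.

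Genes were matched to the RefSeq gene table of Release 6 by symbol, then by locus tag or synonym (17585 of 17698 genes). All 73 members matched, and 71 had the exact span of their unit. A gap is the bases to the nearest other unit, and a tail-to-tail overlap joins 3' ends on opposite strands. The functions for divergent starts, head-to-head overlaps, overlaps and gaps were checked on 300 simulated intervals with 0 mismatches against a pairwise loop. Tail-to-tail overlaps, units inside others and upstream or downstream neighbours were not part of that check. The tools were pandas 2.3.3 and NumPy 2.4.6 under Python 3.11.15, with SciPy 1.17.1 for intervals and Matplotlib 3.10.9 for plots.

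The members and lists were chosen with earlier results of these data known. The rule for named genes covered all members, with detail for shared units, partners within 200 bp, overlaps of 100 bp or more, the 3 longest and 3 shortest units, X members and the S18 homologues; genes beside a member are named with it. The planned motif searches and protein comparison were not run, since sequences were not used here. Libraries were grouped by title and enter no comparison. The divergent partner of 1 member is not reported here.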

Additional observations from a re-analysis of the deposited data

How the results depend on the processing

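No paired analysis was possible because the deposited annotation holds no library values, and replicates could not be left out either. The choices varied were distance, overlap, strand, unit set and the members under other symbols; the protein-coding units set beside the members, the 1-gene protein-coding units under 2000 bp and, for divergent starts and overlaps, the 1-gene units were added after seeing the data, whereas 1-gene units were planned for length. In 7 settings only the units set beside the members changed, so the members' value could not move. Of the other 22, 18 left it within its 95% exact binomial interval (for medians, the interval from order statistics), which describes only variation among units. Several of the 18 changed too few units to leave that interval. They added the 2 members under other symbols, left out the few shared or longer units, or used RefSeq spans, equal to the unit in 71 members. Such settings say nothing on how stable the values are. The other 4 were these. A divergent start within 200 bp was present in 27.4% of members and 9.66% of all nuclear units. Overlaps of at least 100 bp touched 11.0% of members and 28.5% of all units, below the background where overlaps of 1 bp were above it. On the same strand 0% of members overlapped, as did 0% of all units. That value was thus fixed by the annotation, in which no units of 1 strand overlap, and says nothing about the members. The median gap on the same strand was 1427 bp for members and 1058 bp for all units, where the gap on either strand was 0 bp for members and 71 bp for all units. The values at 200 bp and at 100 bp follow from stricter definitions, and the gap on the same strand from leaving out the other strand. No library depth bears on these values.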
